A study of Homo sapiens with 4 samples.

Results

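The genes of elastic fibres and microfibrils are 10 named genes: ELN, FBN1, FBN2, FBLN1, FBLN2, FBLN5, EFEMP1, EFEMP2, LTBP1 and LTBP2. They were taken by symbol from a table of 58219 genes, each symbol matched 1 row, and all 10 passed the filter on low values. Total RNA came from WI-38 cells, a line of normal human embryonic lung fibroblasts, which were transfected with siRNA against G3BP1 (siG3BP1) or with a scrambled control siRNA (siCTL). Cells of both groups were made senescent with 10 Gy of ionizing radiation and harvested at day 8, so that the series holds no proliferating cells. Each group had 2 libraries, A and B. The labels do not state that A and B were separate cultures, so p-values measure only the spread between these libraries, which may be technical. In limma on the deposited values, that spread is a trend over all genes and not the spread of each gene by itself.

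Elastic fibres give lung, skin and arteries their recoil. They consist of a core of crosslinked elastin, encoded by ELN, that is laid down on a scaffold of microfibrils made of fibrillins (FBN1, FBN2). Fibulins (FBLN1, FBLN2, FBLN5, EFEMP1, EFEMP2) bridge tropoelastin, fibrillin and the crosslinking enzymes, and latent TGF-beta binding proteins (LTBP1, LTBP2) bind the microfibrils, with LTBP1 tethering latent TGF-beta to them. Lung fibroblasts are known to make these proteins.

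The sequences of the siRNAs and of coding stretches of the members are shown for 3 reasons, namely the treatment itself, the chemistry of elastin, and the unlike base composition of paralogous members whose reads are compared below. The listed strand of siG3BP1 pairs, over the 19 bases in capitals, with the G3BP1 transcript from its position 356, and neither the paired stretch nor its complement occurs in the canonical transcript of any of the 10 members. The scrambled strand, in lower case, has no such match in the G3BP1 transcript. Shorter or partial matches were not searched for, and whether either siRNA acts on the members was not tested.
siG3BP1: UCAACAUGGCGAAUCUUGGtg
siCTL: aagccaauucaucagcaaugg

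Elastin is built from short repeats of valine, proline and glycine, and its coding sequence carries them as runs of GC-rich codons. The motif GTNCCNGGNGTNGGN, the codons of valine, proline, glycine, valine and glycine, lies 8 times in frame in the coding sequence of ELN and in none of the other 9 members. It occurs in frame in 17 of 20046 canonical human coding sequences (0.0848%), and in any frame on either strand in 0.673% of them. Coding positions 1219 to 1308 of ELN (chromosome 7), with 3 copies in capitals, have a GC content of 64.4%.
ELN: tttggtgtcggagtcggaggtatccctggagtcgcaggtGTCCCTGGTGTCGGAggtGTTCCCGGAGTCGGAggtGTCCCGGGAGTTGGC

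EFEMP1 and EFEMP2 encode fibulin-3 and fibulin-4, which share 56.7% of 430 aligned residues. In their most similar stretch of 30 residues, 24 are identical, yet 28 of 90 bases differ (capitals), 20 of them at the last base of a codon. The stretch lies at coding positions 880 to 969 of EFEMP1 and 727 to 816 of EFEMP2, and its GC content is 44.4% in EFEMP1 and 55.6% in EFEMP2.
EFEMP1: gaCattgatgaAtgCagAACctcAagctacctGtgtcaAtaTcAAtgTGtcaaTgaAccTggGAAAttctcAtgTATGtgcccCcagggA
EFEMP2: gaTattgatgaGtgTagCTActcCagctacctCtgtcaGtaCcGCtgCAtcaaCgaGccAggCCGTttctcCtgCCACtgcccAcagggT

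The fibrillins share 69.9% of 2846 aligned residues, and in their most similar stretch 29 of 30 residues are identical and 18 of 90 bases differ (capitals). Unlike the fibulin pair, the 2 stretches have nearly the same GC content, 50% at coding positions 196 to 285 of FBN1 and 48.9% at 286 to 375 of FBN2.
FBN1: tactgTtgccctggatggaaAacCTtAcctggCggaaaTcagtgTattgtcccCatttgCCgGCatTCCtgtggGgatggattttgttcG
FBN2: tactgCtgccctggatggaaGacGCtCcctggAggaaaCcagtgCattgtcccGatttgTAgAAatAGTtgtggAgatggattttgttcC

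The libraries held 16944404 to 22745000 reads counted in genes. The deposited values, called normalized reads here, are gene readcounts scaled by the size factor of the library they came from. G3BP1 was at 201 and 271 normalized reads in siG3BP1 A and B, against 2675 and 2522 in siCTL A and B (log2 fold change -3.47, adjusted p = 9.10e-21 from limma). Across the 13350 tested genes with a reference sequence, the log2 fold change followed the exonic GC content of the gene (Spearman rho 0.80, across genes, which are not independent replicates). The GC content of each member is therefore given beside its values. Of 9 fibroblast markers, all tested, COL1A1, COL1A2 and VIM were at 69910 normalized reads or more in every library, yet 4 were called lower and 1, VIM, higher. The lower ones were LUM (46.2 and 318 normalized reads in siG3BP1 A and B, against 620 and 1262 in siCTL A and B), PDGFRA (log2 fold change -1.65), DCN (-1.06) and COL3A1 (-0.85, with overlapping groups). The list summed to 382900 and 404400 normalized reads in siG3BP1 A and B and to 264000 and 401500 in siCTL A and B. The 6 epithelial markers summed to 1.10 and 0.819 normalized reads in siG3BP1 A and B and to 1.60 and 3.06 in siCTL A and B. The endothelial marker VWF was at 75.9 and 36.05 in siG3BP1 A and B, against 21.55 and 33.71 in siCTL A and B. The immune marker LYZ was at 68.2 and 65.5 in siG3BP1 A and B, against 23.15 and 23.9 in siCTL A and B. Both were called higher (adjusted p = 0.0487 for VWF and 0.00212 for LYZ from limma). CD14, also immune, was at 23.1 and 39.3 in siG3BP1 A and B, against 54.3 and 46.0 in siCTL A and B. Its log2 fold change was -0.72 and did not pass (adjusted p = 0.132 from limma). VWF was the only 1 of 5 endothelial markers tested, and LYZ and CD14 were 2 of 5 immune markers. The other markers of both lists did not pass the filter on low values. Markers of smooth muscle, another source of elastin, summed to 24170 and 19100 normalized reads in siG3BP1 A and B and to 11060 and 16170 in siCTL A and B. The largest part came from ACTA2, which activated fibroblasts also express. LMOD1 was at 1998 and 2064 in siG3BP1 A and B, against 1652 and 1578 in siCTL A and B. CNN1 was at 2084 to 4182 over the libraries, and SMTN was called higher (log2 fold change 1.26, adjusted p = 0.00107 from limma). The lowest of the list were MYH11, at 9.90 and 15.6 in siG3BP1 A and B against 19.2 and 38.6 in siCTL A and B, and DES, at 5.50 and 52.4 in siG3BP1 A and B against 2.40 and 27.0 in siCTL A and B. The part of these markers in the values below was not tested, and in bulk RNA fewer cells that make a transcript and less of it per cell cannot be told apart.

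**Figure D1:**
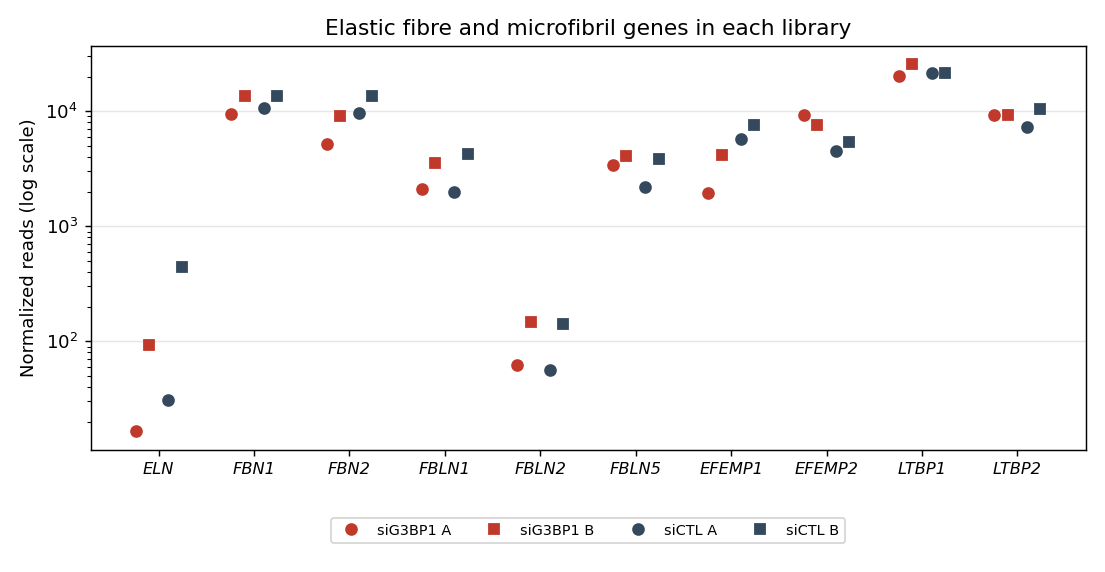
Normalized reads (log axis) of the 10 genes in siG3BP1 A and B (red) and siCTL A and B (dark blue), with circles for A and squares for B. The groups are separated for FBN2, EFEMP1 and EFEMP2, while ELN spans 16.5 to 441 normalized reads and its groups overlap.

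Depletion of G3BP1 was accompanied by lower RNA of ELN, EFEMP1 and FBN2 and higher RNA of EFEMP2 in the test across all genes, whereas the other 6 members did not pass it. That is 4 of 10 members past an adjusted p of 0.05 in limma, against 56.4% of all 13422 tested genes. Among them, ELN had overlapping groups, and its log2 fold change was 0.34 without siCTL B. Lower calls made up 3 of 10 members, against 30.5% of tested genes, and higher calls 1 of 10, against 25.9%. The groups did not overlap for 3 of 10 members, FBN2, EFEMP1 and EFEMP2, whereas they did not overlap for 83.3% of all tested genes. The median log2 fold change of the members was -0.0027, beside 0.037 for all tested genes. With only 10 members, the differences between these shares and those of all tested genes were not tested, and the share called lower was near that of all tested genes. The calls of the members are read against that background.

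With respect to abundance, 8 of 10 members were at the percentile 93 or above of tested genes by normalized reads, with ELN at 37.9 and FBLN2 at 31.5. To compare genes with each other, normalized reads were divided by the length of the canonical transcript in kb. The order differed between groups. In siG3BP1, EFEMP2 (mean 4367 normalized reads per kb) and LTBP1 (3511) came first, followed by FBLN5 (1432), EFEMP1 (1122), LTBP2 (1098), FBN1 (990), FBLN1 (974) and FBN2 (648). In siCTL, LTBP1 (3301) came first, then EFEMP2 (2559) and EFEMP1 (2448), followed by FBLN5 (1153), FBN2 (1071), FBLN1 (1069), LTBP2 (1055) and FBN1 (1042). EFEMP2 and LTBP1 overlapped in siG3BP1, as did EFEMP2 and EFEMP1 in siCTL, where both libraries of LTBP1 were above both of EFEMP2. Neighbours from FBLN5 to the eighth gene overlapped in each group. ELN (16.2 normalized reads per kb in siG3BP1 and 69.5 in siCTL) and FBLN2 (24.2 and 22.9) overlapped with each other, and no library of either reached the lowest library of the other 8 members. Scaled by the union of all annotated exons instead, the mean of the 4 libraries was 3014 for LTBP1, 1241 for EFEMP2 and 1220 for EFEMP1, and ELN and FBLN2 were again the lowest.

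Elastin RNA was scarce and differed more between libraries of the same group than between groups. ELN (ENSG00000049540.16, chromosome 7, 74027789 to 74069907 on the plus strand of GRCh38) was at 16.5 and 93.4 normalized reads in siG3BP1 A and B, against 31.1 and 441 in siCTL A and B. These values rest on 15 and 114 reads in siG3BP1 A and B and on 39 and 720 reads in siCTL A and B. Thus siCTL B was far above the other 3 libraries, and siG3BP1 B lay above siCTL A. ELN gave a log2 fold change of -1.57, with a standard error of 0.38 (2 against 2 libraries, limma adjusted p = 4.01e-04). That standard error follows the trend over all genes and not the spread of ELN itself. Between libraries B and A, ELN differed by 2.47 on the log2 scale within siG3BP1 and by 3.804 within siCTL. Leaving out siCTL B turned the sign to 0.34 (limma adjusted p = 0.718), without siG3BP1 A it was -0.33 (adjusted p = 0.868), and without siG3BP1 B -2.80 (adjusted p = 0.142). It passed without siCTL A (-3.47, adjusted p = 4.07e-05) and in edgeR (-2.16, adjusted p = 9.95e-07), but not in DESeq2 (-2.15, adjusted p = 0.292), under quantile normalization (-1.42, adjusted p = 0.183 from limma) or after length correction (-1.30, adjusted p = 0.246 from limma). ELN has an exonic GC content of 58.6%.

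The fibrillins, which form the backbone of the microfibril, gave 1 call of 2 genes, FBN2 lower, and the difference between the 2 fold changes was not tested. FBN1 (ENSG00000166147.13, chromosome 15, 48408306 to 48645849, minus strand), the main fibrillin of adult tissue and the gene mutated in Marfan syndrome, was at 9547 and 13446 normalized reads in siG3BP1 A and B, against 10585 and 13616 in siCTL A and B. Its groups overlapped, with a log2 fold change of -0.084 (95% interval -0.73 to 0.56, adjusted p = 0.836 from limma). FBN2 (ENSG00000138829.11, chromosome 5, 128257909 to 128659185, minus strand), the fibrillin most abundant in development, was at 5159 and 9012 normalized reads in siG3BP1 A and B, against 9733 and 13672 in siCTL A and B. Both siG3BP1 libraries were below both siCTL libraries, at a log2 difference of -0.76 ± 0.33 (standard error, 2 against 2 libraries, limma adjusted p = 0.0397). Within each library, the ratio of FBN2 to FBN1 reads was 0.54 and 0.67 in siG3BP1 A and B and 0.92 and 1.0 in siCTL A and B. This ratio does not depend on the scaling of the libraries, and the 2 genes have nearly the same exonic GC content, 44.8% for FBN1 and 44.7% for FBN2. FBN2 passed without siG3BP1 B (adjusted p = 0.00756 from limma), but not without siG3BP1 A (0.263), siCTL A (0.312) or siCTL B (0.556). Among the other settings, the call was lost with no filter on low values (0.124 from limma) and with the library letter as a block (0.107 from limma). It was also lost in DESeq2 (0.051), after GC correction with or without that block (given below) and after length correction (-0.18, adjusted p = 0.659 from limma).

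Among the fibulins, the paralog EFEMP1 was lower and EFEMP2 higher, although EFEMP2 turned to -0.12 after GC correction (given below). EFEMP1 (ENSG00000115380.19, chromosome 2, 55865967 to 55924139, minus strand), which encodes fibulin-3, a glycoprotein of basement membranes and elastic tissue, was at 1954 and 4124 normalized reads in siG3BP1 A and B, against 5683 and 7576 in siCTL A and B. Both siG3BP1 libraries were lower, by -1.21 ± 0.33 on the log2 scale (standard error, 2 against 2 libraries, limma adjusted p = 0.00154). EFEMP2 (ENSG00000172638.12, chromosome 11, 65866441 to 65873592, minus strand), which encodes fibulin-4, a protein needed for elastic fibre assembly that binds lysyl oxidase, was at 9346 and 7547 normalized reads in siG3BP1 A and B, against 4515 and 5384 in siCTL A and B. Both siG3BP1 libraries were higher, by 0.77 ± 0.33 on the log2 scale (standard error, 2 against 2 libraries, limma adjusted p = 0.0380). EFEMP2 thus outnumbered EFEMP1 in siG3BP1 libraries, with a ratio of reads of 4.78 in A and 1.83 in B, whereas the ratio was 0.79 in siCTL A and 0.71 in siCTL B. The exonic GC content is 44.6% for EFEMP1 and 60.6% for EFEMP2, so this ratio, unlike that of the fibrillins, pairs genes of unlike base composition. EFEMP1 passed without siG3BP1 B (adjusted p = 0.00166 from limma) but not without siG3BP1 A (0.0546), siCTL A (0.209) or siCTL B (0.297), and EFEMP2 did not pass without siCTL A (0.486) or siCTL B (0.320). Among the other settings, the call of EFEMP2 was lost with no filter (0.102 from limma) and with the library letter as a block (0.110 from limma). It was also lost after GC correction with or without that block, under TMM scaling (0.0676) or quantile normalization (0.165), and in edgeR (0.076). The call was kept in DESeq2 (0.0231).

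**Figure D2:**
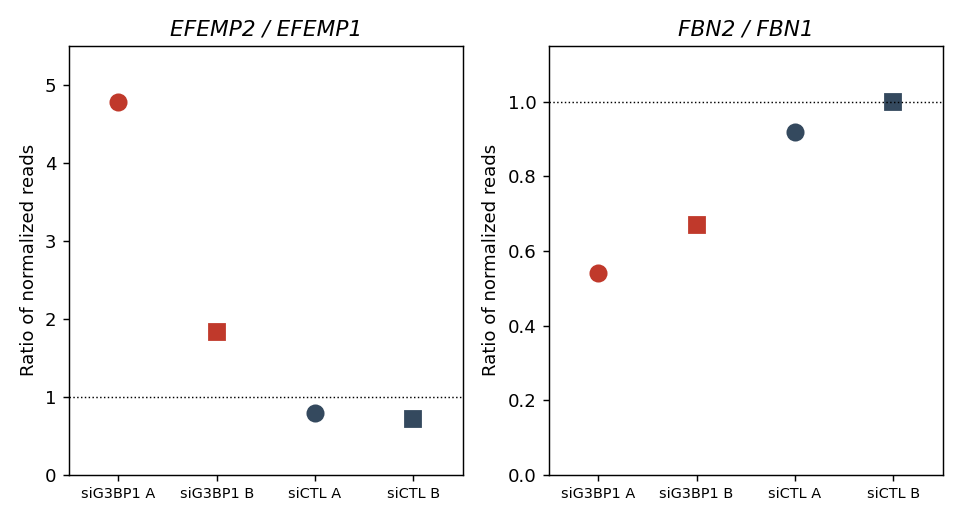
Ratio of normalized reads of EFEMP2 to EFEMP1 (left) and of FBN2 to FBN1 (right) in each library, on linear axes from 0, with a dotted line at a ratio of 1. The ratio of the fibulins was 4.78 and 1.83 in siG3BP1 A and B and below 1 in both siCTL libraries, and that of the fibrillins was 0.54 and 0.67 in siG3BP1 A and B against 0.92 and 1.0 in siCTL A and B.

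The other fibulins did not pass the test. FBLN5 (ENSG00000140092.14, chromosome 14, 91869412 to 91947987, minus strand), which links tropoelastin to microfibrils and to integrins of the cell, was at 3415 and 4106 normalized reads in siG3BP1 A and B, against 2209 and 3846 in siCTL A and B. Its log2 fold change was 0.36 (95% interval -0.29 to 1.01, adjusted p = 0.345 from limma), with a GC content of 49.6%. FBLN1 (ENSG00000077942.18, chromosome 22, 45502238 to 45601135, plus strand), a fibulin of the elastin core and of basement membranes, was at 2120 and 3538 normalized reads in siG3BP1 A and B, against 2003 and 4208 in siCTL A and B. Here both A libraries were low and both B libraries high, and the log2 fold change was -0.084 (95% interval -0.74 to 0.57, adjusted p = 0.837 from limma, GC content 57.6%). FBLN2 (ENSG00000163520.13, chromosome 3, 13549131 to 13638422, plus strand), which binds fibrillin and basement membrane proteins, had the same layout at a low level, with 62.7 and 146 normalized reads in siG3BP1 A and B, against 55.9 and 142 in siCTL A and B. Its log2 fold change was 0.10 (95% interval -0.61 to 0.82, adjusted p = 0.817 from limma, GC content 61.2%).

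Neither latent TGF-beta binding protein passed the test, and both had overlapping groups. LTBP1 (ENSG00000049323.15, chromosome 2, 32946972 to 33399509, plus strand) was the member with the most reads, at 20059 and 25599 normalized reads in siG3BP1 A and B, against 21335 and 21597 in siCTL A and B. The siCTL libraries lay between the siG3BP1 libraries, with a log2 fold change of 0.078 (95% interval -0.56 to 0.72, adjusted p = 0.845 from limma, GC content 50.7%). LTBP2 (ENSG00000119681.11, chromosome 14, 74498170 to 74612378, minus strand), which binds fibrillin but is not known to carry TGF-beta, was at 9341 and 9234 normalized reads in siG3BP1 A and B, against 7307 and 10541 in siCTL A and B. Its log2 fold change was 0.082 (95% interval -0.56 to 0.73, adjusted p = 0.840 from limma, GC content 57.0%).

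Set against genes of like GC content, the members spread widely. FBN1, FBN2 and EFEMP1 lie in the fourth decile of GC content of all tested genes (43.1% to 45.4%), whose median was -0.75 on the log2 scale (629 genes called lower and 40 higher by limma). Their own log2 fold changes were -0.084 for FBN1, -0.76 for FBN2 and -1.21 for EFEMP1. ELN, FBLN1 and EFEMP2 lie in the ninth decile (57.4% to 60.9%), where the median was 0.93, with 4 genes lower and 877 higher. Their log2 fold changes were -1.57 for ELN, -0.084 for FBLN1 and 0.77 for EFEMP2. FBLN2 lies in the tenth decile (median 0.99), LTBP2 in the eighth (median 0.84), and FBLN5 and LTBP1 in the sixth (median 0.27). FBN2 (-0.0055), EFEMP2 (-0.17), LTBP1 (-0.19) and FBLN5 (0.094) differed from the median of their decile by less than their standard error. FBN1 was 0.67 above its decile median, whereas ELN was at -2.50, FBLN1 at -1.02, FBLN2 at -0.89, LTBP2 at -0.76 and EFEMP1 at -0.46 relative to theirs.

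**Figure D3:**
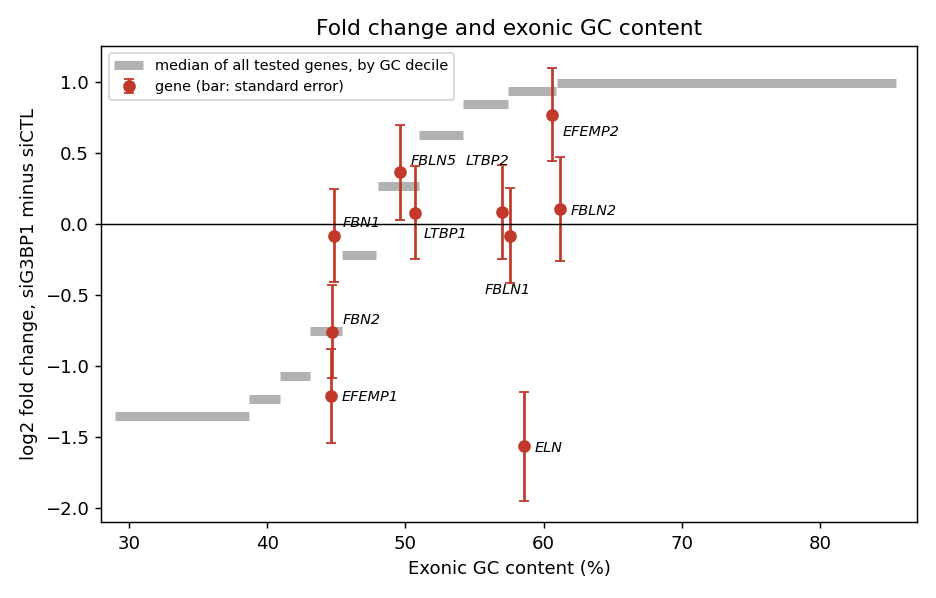
Log2 fold change (siG3BP1 minus siCTL) against exonic GC content for the 10 genes (red, bars are the standard error from limma), with the median of all tested genes in each GC decile as grey lines. The decile medians climb from -1.35 to 0.99, FBN2 and EFEMP2 sit close to the medians of their deciles, and ELN at -1.57 lies far below that of its decile at 0.93.

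After the GC trend of each library was removed, none of the 10 members passed (0 of 10, with 1 of 13350 genes, or 0.00749%, past the threshold in limma). At an unadjusted p under 0.05 it was 1 of 10, LTBP2, against 28.3% of all genes in that fit. The log2 fold change of EFEMP2 was then -0.12 (adjusted p = 0.641 from limma), that of FBN2 -0.20 (0.608) and that of EFEMP1 -0.63 (0.185). FBN1 was at 0.45 (0.189), FBLN5 at 0.17 (0.720) and LTBP1 at -0.26 (0.433). ELN was at -2.42 (standard error 1.36, adjusted p = 0.287), FBLN1 at -0.91 (0.250), FBLN2 at -0.80 (0.432) and LTBP2 at -0.72 (0.120). The median log2 fold change of the members was -0.44 after the correction, beside 0.015 for all genes in that fit. Standard errors in this fit rest partly on each gene's own spread (limma prior of 4.21 degrees of freedom), whereas those of the main fit follow the trend over all genes. The same fold changes, with the library letter as a block, gave 5 of 10 members called lower and 0 higher by limma (listed below). Of all 13350 genes in that fit, 1923 were called lower and 1962 higher.

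**Figure D4:**
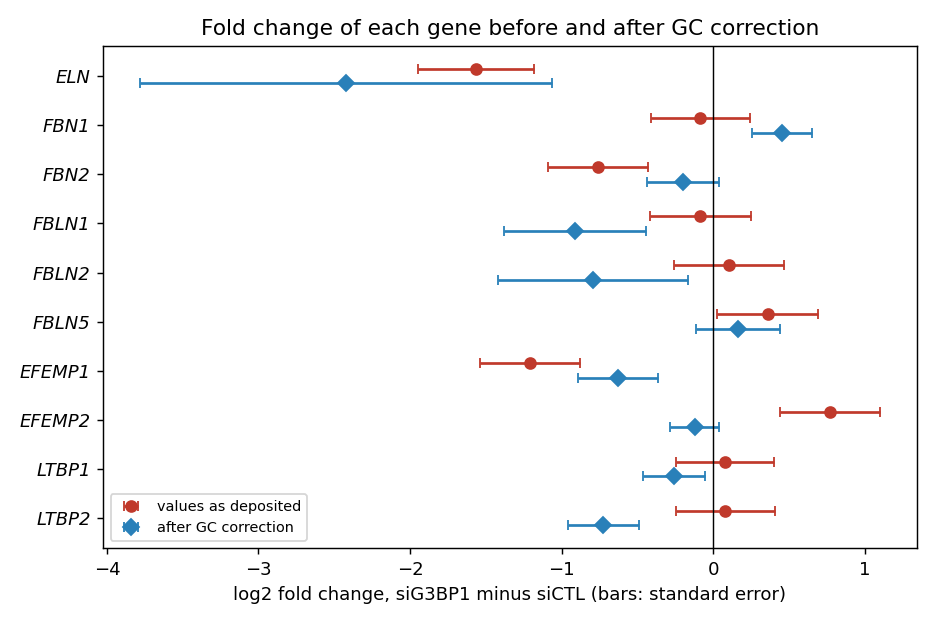
Log2 fold change (siG3BP1 minus siCTL) of each gene from limma on the deposited values (red circles) and after GC correction (blue diamonds), with bars of 1 standard error. EFEMP2 is at 0.77 before and -0.12 after the correction, EFEMP1 at -1.21 and -0.63, and ELN at -1.57 and -2.42.

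Most members were higher in the library labelled B of each group, which the comparison of groups does not show. In siG3BP1 B, 8 of 10 members were above siG3BP1 A, and in siCTL B, 10 of 10 were above siCTL A. Both held for 8 of 10 members, against 25.2% of all tested genes. The median difference B minus A of the members was 0.62 on the log2 scale within siG3BP1 and 0.51 within siCTL, beside 0.089 and 0.0038 for all tested genes. ELN differed by 2.47 on the log2 scale within siG3BP1 and by 3.804 within siCTL, and 6 of 13422 tested genes, ELN included, had as large a difference in siCTL. FBLN2 differed by 1.21 within siG3BP1 and 1.33 within siCTL, FBLN1 by 0.74 and 1.07, and EFEMP1 by 1.08 and 0.41. The labels do not say what the letters mark, and what set the B libraries apart was not tested.

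**Figure D5:**
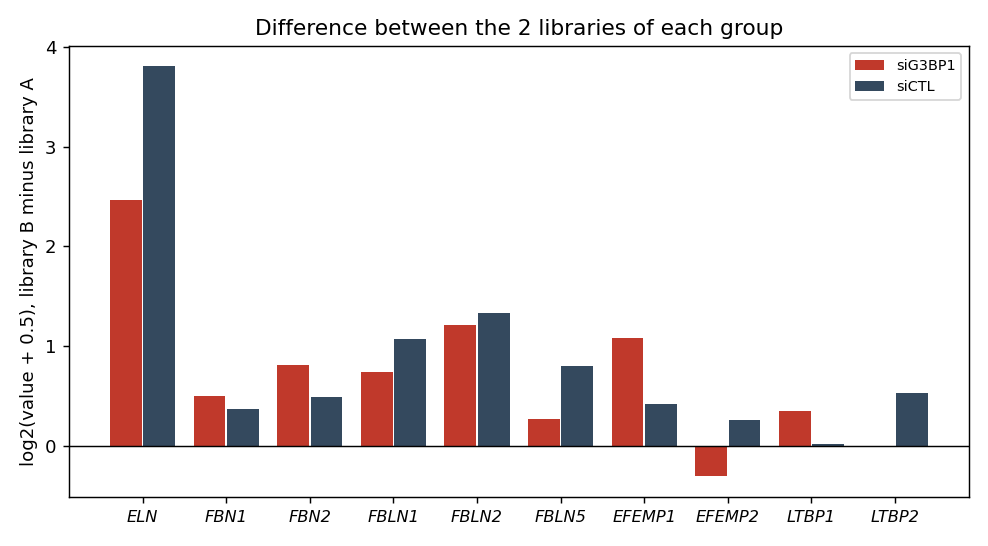
Difference of log2(value + 0.5) between library B and library A within siG3BP1 (red) and within siCTL (dark blue) for each gene, with bars from 0. ELN differs by 2.47 within siG3BP1 and 3.804 within siCTL, and EFEMP2 and LTBP2 are the only members that were lower in B, both within siG3BP1.

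Other genes of the elastic fibre pathway were described from 7 lists by their counts. Together 52 genes were tested, of which 17 (32.7%) were called higher, against 25.9% of all tested genes, and 10 (19.2%) lower, against 30.5%. Of 13 microfibril and elastin partners, 9 were tested, of which 1 was lower, 1 higher and 7 did not pass, with a median log2 fold change of 0.043. Neither of the 2 called genes had separated groups, and both are named after their values were seen. HMCN1, which encodes a large fibulin-like protein, was at 12.1 and 154 normalized reads in siG3BP1 A and B, against 69.5 and 451 in siCTL A and B (log2 fold change -2.01, adjusted p = 5.05e-06 from limma). TNXB, the matrix protein tenascin-X, was at 39.6 and 112 normalized reads in siG3BP1 A and B, against 9.58 and 72.3 in siCTL A and B (log2 fold change 1.31, adjusted p = 0.00558 from limma). Both calls were lost under quantile normalization and in DESeq2, and the list gave 2 lower and 0 higher in edgeR and 0 lower and 2 higher after length correction. As with ELN, the B library of each group was the higher one for both genes.

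The crosslinking enzymes, which join elastin and collagen chains, included members of the lysyl oxidase family moving both ways. Of 9 genes 8 were tested, with 3 higher, 1 lower and 4 not past the threshold (median log2 fold change 0.53). LOX, lysyl oxidase itself, was at 1444 and 1964 normalized reads in siG3BP1 A and B, against 3010 and 4083 in siCTL A and B, a log2 fold change of -1.06 (adjusted p = 0.00524 from limma, GC content 40.8%). LOXL1, its relative that acts on elastin, was at 4388 and 4064 in siG3BP1 A and B, against 1631 and 2492 in siCTL A and B (log2 fold change 1.07, adjusted p = 0.00486 from limma, GC content 64.9%). LOXL4 was higher with a log2 fold change of 1.37 (adjusted p = 4.63e-04 from limma, GC content 57.3%). After GC correction these were 0.023 for LOX, 0.12 for LOXL1 and 0.55 for LOXL4, and none passed.

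Among the ADAMTS and ADAMTSL genes, whose products bind or process microfibrils, 6 of 9 were tested, with 3 higher and 3 not past the threshold (median 0.52). ADAMTSL1 was higher with a log2 fold change of 1.68, ADAMTSL5 with 1.21 and ADAMTSL4, whose loss displaces the lens of the eye, with 1.01. Of the 4 matrix proteoglycans, 2 were lower, 1 was higher and 1 did not pass (median -0.56). Versican (VCAN), which binds fibrillin, was at -1.64, decorin (DCN) at -1.06 and perlecan (HSPG2) at 0.93. The GC content of VCAN and DCN is 41.6% and 36.7%, and that of HSPG2 63.5%.

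Of 10 genes of the TGF-beta cargo and its release, 4 were lower, 1 was higher and 5 did not pass (median -0.23). ITGAV, the alpha chain of the integrins that free TGF-beta from its latent complex, was at 320 and 763 normalized reads in siG3BP1 A and B, against 1905 and 3038 in siCTL A and B, a log2 fold change of -2.28 (adjusted p = 6.74e-09 from limma, GC content 36.7%). ITGB1 was at -1.58 and the ligand gene TGFB2 at -1.29. Of 6 receptors of elastin and microfibrils, 4 were higher, 1 was lower and 1 did not pass (median 0.92). ITGA8, an integrin chain of fibroblasts, was at 222 and 759 normalized reads in siG3BP1 A and B, against 3066 and 2311 in siCTL A and B, a log2 fold change of -2.70 (adjusted p = 1.65e-12 from limma). ITGA5, the fibronectin receptor chain, was at 1.09, and NEU1, the sialidase of the elastin receptor complex, at 1.02.

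Of 15 elastases and their inhibitors, 9 were tested, of which 4 were higher, 1 was lower and 4 did not pass (median 0.57). CTSS, the elastolytic cathepsin S, was at 14.3 and 13.1 normalized reads in siG3BP1 A and B, against 67.9 and 41.7 in siCTL A and B, a log2 fold change of -1.92 (adjusted p = 3.49e-04 from limma). CST3, which encodes the cathepsin inhibitor cystatin C, was at 1.13, and MMP14, a membrane-bound metalloproteinase, at 0.81. The elastase genes MMP7 and MMP9 (named, like MMP12, outside the rule for called genes) had no read in any library, which allows up to 3 reads per library, and MMP12 was at 0.819 to 4.79 normalized reads. After GC correction 0 genes of the 7 lists passed in limma, and 12 of 52 (23.1%) did at an unadjusted p under 0.05, against 28.3% of all genes. The 4 elastase and inhibitor genes called higher became 1 with no filter, under quantile normalization or under TMM scaling, and 2 in edgeR. The 1 called lower, CTSS, was not tested with a minimum mean of 50, since its mean is below that. Under quantile normalization 2 receptors and 0 genes of the proteoglycan and TGF-beta lists were higher, and after length correction 1 proteoglycan was lower. The counts also rested on the siCTL libraries: without siCTL A or without siCTL B no crosslinking, ADAMTS and ADAMTSL, proteoglycan or elastase gene passed, and of the 6 receptors 1 was lower and none higher. Genes of the TGF-beta list called lower numbered 2 without siCTL A and 0 without siCTL B. Without siG3BP1 A, no proteoglycan and no microfibril or elastin partner passed, and the 2 partners called without siCTL A were both lower.

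The exons of 5 members overlap those of a gene on the opposite strand, and whether the counting used strand is not given in the sources used here, although the libraries were stranded. The shared part was 0.204% to 3.39% of the member's exonic bases. For EFEMP2 it was 11 bases shared with MUS81.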

How the data were processed

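Total RNA of 4 libraries was sequenced as paired-end reads. The authors trimmed reads with Trimmomatic 0.35, aligned them with STAR to GRCh38 and normalized gene readcounts with DESeq2 1.22.1. TopHat2 2.0.10 and mouse builds, listed in the submitters' notes as well, are given no role there. The deposited values are a signal, namely readcounts scaled by library size factors. Multiplied by that factor, 100% were whole within 1e-06 reads. Columns with the authors' fold changes and p-values were not used.

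The test covered 13422 genes with a mean of 10 or more and was two-sided, with limma 3.58.1 (R 4.3.3, mean-variance trend) on log2(value + 0.5), with Benjamini-Hochberg adjustment over all tested genes and a threshold of 0.05. Fold changes are on that scale, which understates those of low genes. The fitted prior had infinite degrees of freedom in this fit, so its standard errors follow the trend over all genes, and 95% intervals use them. After GC correction the prior had 4.21 degrees of freedom. Exonic GC content and transcripts came from a more recent Gencode release of GRCh38, with 99.5% of tested genes matched. GC and length corrections removed a loess trend (span 0.3) per library. Alternatives were 2 count tests on the whole reads (edgeR 4.0.16, DESeq2 1.42.0), other pseudocounts, filters and scalings, the letter as a block and each library left out. The test was also run on simulated counts with a fixed dispersion for all genes, no GC trend and no difference between A and B. That run cannot show how the test behaves on data with these features. The members, the pathway lists and the markers were chosen with earlier results of these data known. Named beside the members and G3BP1 were, per list, up to 3 called genes with the largest fold change and separated groups. HMCN1, TNXB, MFAP2, LOXL3, MMP7, MMP9 and MMP12 were named outside this rule, after their values were seen, and marker genes were named as checks of cell type.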

Additional observations from a re-analysis of the deposited data

How the results depend on the processing

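The direction of ELN, EFEMP1 and FBN2 was negative under all 12 alternatives that kept every library, which all reuse the same 4 libraries. The other filters and the block leave a fold change as it was, and the pseudocounts barely move it, so these settings could not turn a sign. Without siCTL B, ELN was at 0.34. EFEMP2 kept a positive direction under 10 of the 12 alternatives and had a log2 fold change of -0.12 after GC correction, with or without the replicate block. The count of members called higher was 0 with no filter, under quantile normalization, under TMM scaling, in edgeR, with the replicate block, after GC correction and after GC correction with the block, and that of members called lower was 1 in DESeq2, 1 after length correction and 0 after GC correction. After GC correction 0 genes were higher and 1 was lower over all tested genes. With the replicate block FBN2 (adjusted p = 0.107 from limma) and EFEMP2 (0.110) lost their calls, leaving 2 members lower, and 2380 genes were higher and 3664 lower. Only 1 elastase or inhibitor gene and 0 genes of the TGF-beta list were then higher. In general terms, the study describes its treatments as paired with controls and repeated independently, without naming these libraries. The letters are not said to mark a shared culture or day, and the deviations of siG3BP1 A and siCTL A from their group means correlated with r = 0.31 across genes. With GC correction and replicate block together, 5 of 10 members were called lower (ELN, FBLN1, FBLN2, EFEMP1 and LTBP2) and 0 higher. FBLN2 was at -0.80 and LTBP2 at -0.72, against positive values as reported. Of all 13350 genes in that fit, 1962 were higher and 1923 lower. Of the lists, that fit called 4 partners lower and 0 higher, 3 crosslinking genes lower and 1 higher, 1 ADAMTS or ADAMTSL gene lower and 1 higher, 2 proteoglycans lower and 0 higher, 4 genes of the TGF-beta list lower and 0 higher, 1 receptor lower and 2 higher, and 0 elastases or inhibitors lower and 3 higher. Leaving out each library in turn gave 0 to 1 members higher and 0 to 2 lower, and 5 to 4575 genes higher and 12 to 5050 lower over all genes, the lowest being without siCTL B (5 and 12) and next without siCTL A (20 and 107). In these fits the lone library of a group is assumed to vary like the other group. The log2 fold change of ELN ranged from -3.47 to 0.34. The standard error of ELN was 0.38 in the main fit, 1.36 after GC correction and 0.255 with GC correction and replicate block together. The limma prior had infinite degrees of freedom in the main fit and 4.21 after GC correction, so counts of calls also vary with the standard errors. Why the settings differed was not tested. G3BP1 passed under every alternative that kept every library. Its log2 fold change was -3.47 as reported and -2.32 after GC correction. Whether that correction also removed effects of the treatment was not tested. ELN rests on 15 to 720 reads per library.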

Other observations

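MFAP2, which encodes a small glycoprotein of the microfibril, had values laid out like those of ELN, with 29.7 and 152 normalized reads in siG3BP1 A and B and 27.1 and 341 in siCTL A and B (log2 fold change -0.52, adjusted p = 0.220 from limma). LOXL3 of the lysyl oxidase family was at 163 and 682 normalized reads in siG3BP1 A and B and at 142 and 628 in siCTL A and B (log2 fold change 0.16, adjusted p = 0.703 from limma). For both genes the library labelled B was the higher one in each group, and the groups overlapped. These genes were singled out after their values were seen.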
